A study of Mus musculus with 36 samples.

Results

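The resolution phase of an IL-1β response was followed in mouse fibroblast-like chondrocytes by comparing 3 libraries taken after 24 h with IL-1β against 3 taken after 8 h, all from cells that had received control siRNA. These were 6 of the 36 poly(A) RNA-seq libraries of the study, and they were chosen by their labels alone, as the control-siRNA samples at 8 h and 24 h. Every cell came from the wild-type version of a conditionally immortalised chondrocyte line. The line is grown at 33 °C with interferon-γ, which keeps the immortalising gene on, and is moved to 37 °C without interferon-γ before experiments. The control cells carried a non-targeting siRNA pool, written NT, and the other cells of the study carried siRNA against *Ift88*, written IFT88siRNA, which targets a protein that carries cargo along the cilium. Sample labels give the siRNA at 50 nM whereas the study's methods give 10 nM. Cells of both siRNA groups received IL-1β at 10 ng/ml for 1, 2, 4, 8 or 24 h, or medium only, written 0 h, with 3 replicates of each condition. Untreated cells kept for 8 h or 24 h were not analysed here, so time with IL-1β and time in culture cannot be told apart. The labels do not say whether replicates came from separate cultures, and p-values then measure only the spread between these samples, which may be technical. Depth on genes was 20329867 to 25712451 counts in the 8 h libraries and 25146934 to 26873538 in the 24 h libraries, which covers counting error only.

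IL-1β is a cytokine that binds its receptor and, through MyD88, switches on the kinases that free NF-κB and activate the AP-1 transcription factors. Within hours these factors raise chemokines, cytokines, proteases and the enzymes that make nitric oxide and prostaglandin E2, and they also raise their own inhibitors, among them IκBα, A20 and regulators of mRNA decay. Chondrocytes and synovial fibroblasts answer IL-1β with matrix-degrading enzymes and inflammatory mediators, which is why the response is studied in arthritis. A response of this kind can end because the signal stops, because mRNAs decay or because a second wave of genes takes over, and the comparison of 24 h with 8 h asks which mRNAs have gone and which remain.

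Between 8 h and 24 h the largest falls were in interferon-linked chemokines and antiviral genes, a growth-factor binding protein and matrix genes, and the largest rises were in genes of the acute-phase response, of lactate export and of low-oxygen metabolism. Of 15374 genes with enough counts to test, 1400 (9.11%) were lower and 569 (3.7%) were higher at 24 h by edgeR's quasi-likelihood test. A gene was called here with a Benjamini-Hochberg adjusted p under 0.05 and a fold change over 1.5, and changes are given as log2(24 h/8 h). By adjusted p alone, without the fold threshold, 3252 genes were lower and 3533 higher, so the excess of falls rests on their size. The median log2 change over all tested genes was 0.0157, and single genes ran from -5.32 to 4.77. In the plot of change against abundance the called falls reach further from 0 than the called rises.

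**Figure D1:**
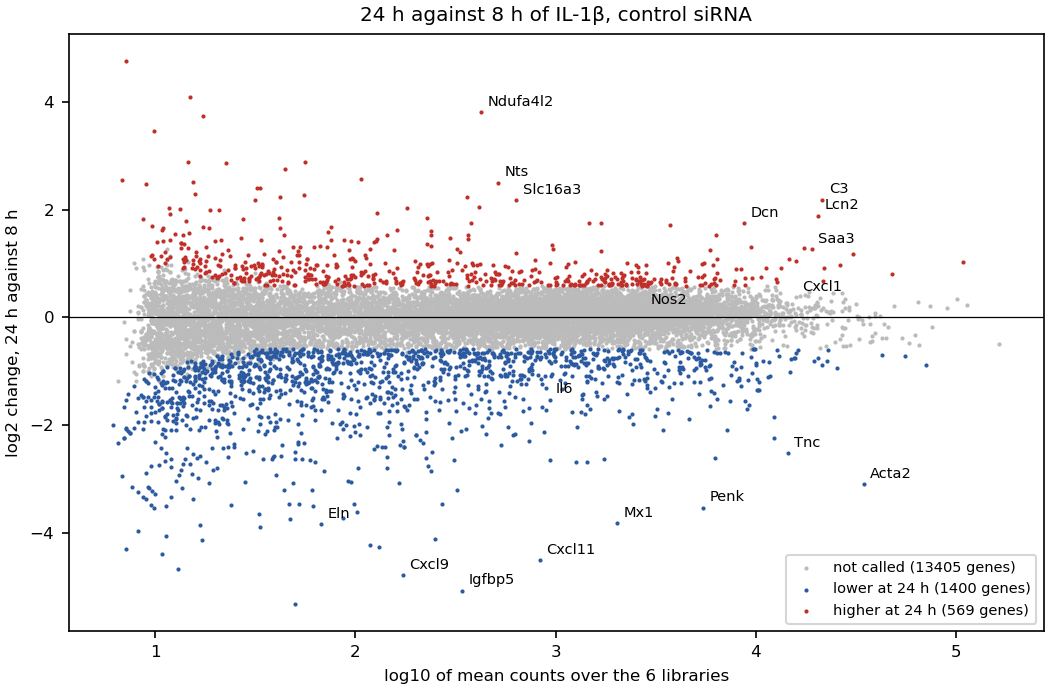
Each point is 1 of the 15374 tested genes, with the log10 of its mean count over the 6 libraries on the x axis and its log2 change from 8 h to 24 h in NT cells on the y axis. The 1400 genes called lower and the 569 called higher are coloured, and the named genes include *Igfbp5* at -5.08 and *Ndufa4l2* at 3.82.

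*Igfbp5* (ENSMUSG00000026185, chr1:72857932-72874884), which encodes a secreted binding protein for insulin-like growth factors, had the largest fall among genes with a mean of at least 50 counts and no overlap between the groups. Its level was 27.3, 27.1 and 28.5 CPM after 8 h and 0.605, 1.13 and 0.742 CPM after 24 h (log2 change -5.08, SE 0.129, adjusted p = 8.26e-11). Medium-only cells had 5.11, 5.12 and 4.63 CPM, so the 3 libraries at 24 h lay below both earlier groups. CPM here is a gene's count scaled by library size, with TMM over the 36 libraries, a value after ± is the SD over 3 libraries, and gene coordinates are those of GRCm38.

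*Cxcl9* (chr5:92321347-92328079) and *Cxcl11* (chr5:92359544-92365485), which lie close together on chromosome 5 and encode chemokines that draw T cells through the receptor CXCR3, came next. *Cxcl9* was at 13, 15.3 and 13.6 CPM after 8 h and 0.718, 0.490 and 0.318 CPM after 24 h (log2 change -4.80, SE 0.176, adjusted p = 8.88e-10). *Cxcl11* was at 69.6, 57.8 and 71.4 CPM after 8 h and 3.78, 2.79 and 2.33 CPM after 24 h (log2 change -4.51, SE 0.13, adjusted p = 1.41e-10). *Mx1* (chr16:97447035-97462907), an interferon-induced antiviral GTPase, was at 154, 154 and 161 CPM after 8 h and 9.98, 12.2 and 11.5 CPM after 24 h (log2 change -3.82, SE 0.0637, adjusted p = 3.09e-12). The other large falls by the same rule were *Cyp1a1*, the xenobiotic-metabolising target of the aryl hydrocarbon receptor (-4.26), *Myoc* for the secreted protein myocilin (-4.22), *Cilp2* for a cartilage intermediate layer protein (-4.12), *Eln* for elastin (-3.84), *Cdh1* for E-cadherin (-3.73) and *Slfn5* of the interferon-induced schlafen family (-3.62).

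On the rising side *Ndufa4l2* (ENSMUSG00000040280, chr10:127514967-127517154), a mitochondrial protein gene known as a target of hypoxia-inducible factor, changed most. It was at 2.11, 1.97 and 2.11 CPM after 8 h and 32.5, 29.2 and 27.3 CPM after 24 h (log2 change 3.82, SE 0.103, adjusted p = 1.1e-10). The medium-only libraries had 3.77, 4.30 and 3.75 CPM, which placed 24 h far above every earlier group. *Nts* (chr10:102481756-102490486), which encodes the neurotensin precursor, was at 5.68, 5.99 and 5.53 CPM after 8 h and 36.7, 33.1 and 29.5 CPM after 24 h (log2 change 2.51, SE 0.0938, adjusted p = 1.05e-09). *C3* (chr17:57203970-57228136), the central complement component, was at 294, 275 and 295 CPM after 8 h and 1455, 1288 and 1265 CPM after 24 h (log2 change 2.19, SE 0.0592, adjusted p = 1.1e-10). *Il13ra2*, a decoy receptor for IL-13, was at 5.30, 4.11 and 4.76 CPM after 8 h and 22.7, 21.2 and 23.6 CPM after 24 h (log2 change 2.23, SE 0.0939, adjusted p = 2.92e-09). No overlap between the 8 h and 24 h libraries was part of the rule that chose these genes. The remaining large rises were *Orm1* for the acute-phase protein orosomucoid (2.88), *Rassf9* (2.57), *S100a8* for a calprotectin subunit (2.28), *Slc16a3* for the lactate exporter MCT4 (2.18), *Car9* for carbonic anhydrase 9 (2.06) and *Klra2* (2.04).

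Promoters of genes that led a direction are shown here because the groups described below share short sequence elements. Each window runs from 250 bases before to 50 bases after the RefSeq start site in GRCm38.p6, read 5′ to 3′ on the gene's own strand. Capitals mark, on either strand, a κB-like GGANNTTCC, an ISRE-like GAAANNGAA or an AP-1 TGANTCA match, and in *Slc16a3* and *Tpi1* only the ACGTG core that hypoxia-inducible factor and other bHLH factors can bind. *Igfbp5* (chr1:72874816-72875115, minus strand) and *Cxcl9* (chr5:92328030-92328329, minus strand) stand for the genes raised at 4 h that fell most.
Igfbp5: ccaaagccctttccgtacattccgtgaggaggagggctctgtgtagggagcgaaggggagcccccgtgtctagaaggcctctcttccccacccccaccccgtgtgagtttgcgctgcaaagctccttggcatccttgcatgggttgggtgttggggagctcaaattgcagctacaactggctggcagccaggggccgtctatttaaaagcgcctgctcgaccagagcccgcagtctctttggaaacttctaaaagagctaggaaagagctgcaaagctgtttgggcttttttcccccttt
Cxcl9: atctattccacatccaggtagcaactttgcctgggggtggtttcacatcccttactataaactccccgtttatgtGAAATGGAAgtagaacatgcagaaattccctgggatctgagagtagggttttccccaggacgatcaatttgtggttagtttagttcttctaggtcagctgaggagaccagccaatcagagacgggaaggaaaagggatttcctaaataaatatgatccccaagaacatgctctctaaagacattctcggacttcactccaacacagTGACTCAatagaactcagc
*Nts* (chr10:102490369-102490668, minus strand) and *Il13ra2* (chrX:147429143-147429442, minus strand) stand for the genes raised at 4 h that went on rising.
Nts: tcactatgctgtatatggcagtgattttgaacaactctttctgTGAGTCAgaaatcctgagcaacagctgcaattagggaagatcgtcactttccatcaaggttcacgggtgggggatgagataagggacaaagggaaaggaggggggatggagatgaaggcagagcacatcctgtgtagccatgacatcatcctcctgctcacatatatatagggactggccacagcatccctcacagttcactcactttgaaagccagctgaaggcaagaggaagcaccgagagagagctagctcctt
Il13ra2: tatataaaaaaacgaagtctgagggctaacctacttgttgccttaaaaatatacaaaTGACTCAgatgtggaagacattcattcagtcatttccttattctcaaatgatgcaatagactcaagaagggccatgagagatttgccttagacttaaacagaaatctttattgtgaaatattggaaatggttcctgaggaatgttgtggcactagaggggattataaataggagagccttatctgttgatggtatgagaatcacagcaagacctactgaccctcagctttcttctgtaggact
*Ifit3* (chr19:34583279-34583578, plus strand) stands for the interferon-stimulated genes, and *Slc16a3* (chr11:120948817-120949116, plus strand) and *Tpi1* (chr6:124814109-124814408, minus strand) for the glycolysis genes.
Ifit3: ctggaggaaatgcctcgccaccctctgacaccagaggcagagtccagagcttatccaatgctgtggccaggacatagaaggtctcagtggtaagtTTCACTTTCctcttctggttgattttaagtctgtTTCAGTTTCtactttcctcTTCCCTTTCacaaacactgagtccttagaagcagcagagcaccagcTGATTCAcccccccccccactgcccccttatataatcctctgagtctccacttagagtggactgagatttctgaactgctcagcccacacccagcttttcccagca
Slc16a3: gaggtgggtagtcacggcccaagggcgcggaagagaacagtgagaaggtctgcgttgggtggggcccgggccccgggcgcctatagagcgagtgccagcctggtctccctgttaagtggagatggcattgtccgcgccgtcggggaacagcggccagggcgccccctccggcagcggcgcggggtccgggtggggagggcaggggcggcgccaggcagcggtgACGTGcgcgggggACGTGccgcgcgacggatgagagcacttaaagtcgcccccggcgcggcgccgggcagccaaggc
Tpi1: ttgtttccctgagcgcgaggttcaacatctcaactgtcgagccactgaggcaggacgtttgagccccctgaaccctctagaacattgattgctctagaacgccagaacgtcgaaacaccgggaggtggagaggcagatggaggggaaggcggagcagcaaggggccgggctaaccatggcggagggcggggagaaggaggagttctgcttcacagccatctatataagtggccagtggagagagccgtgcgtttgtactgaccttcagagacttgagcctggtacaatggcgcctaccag
The *Ifit3* window held 3 ISRE-like matches, starting 155, 121 and 102 bases before the start site, and the *Cxcl9* window held 1, starting 175 bases before it. *Slc16a3* had ACGTG cores starting 27 and 14 bases before its start site. The *Igfbp5* and *Tpi1* windows held no such letters.

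How far the early response decayed after 8 h was read from genes that IL-1β raised or lowered at 4 h. That choice was made on the 4 h and 0 h libraries, which the comparison of 24 h with 8 h does not use. At 4 h in NT cells 2477 genes (16.4% of those tested) were higher than at 0 h and 1971 (13.1%) were lower. Of the raised genes, 2407 could be tested late: 876 (36.4%) were lower at 24 h than at 8 h, against 9.11% of all genes, 60 (2.49%) were higher, and 1471 passed neither way. Their median log2 change was -0.401. Decay between 4 h and 8 h is not seen in this comparison. Raised genes that passed neither way may thus have come down before 8 h or stayed high. Of the lowered genes, 1874 could be tested: 247 (13.2%) were higher at 24 h, against 3.7% of all genes, 83 (4.43%) were lower, and 1544 passed neither way. Their median was 0.175. Among the 10525 tested genes that were called neither way at 4 h, 369 were lower and 211 higher.

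The share of genes called lower was larger where the early rise was larger. A small early rise leaves little room for the 1.5-fold fall that a call needs. Part of this gradient is therefore built in by the threshold, and how much was not tested. Where the rise at 4 h was under 1 on the log2 scale, 17.1% of 923 genes were lower at 24 h, and the share was 37.1% of 893 genes for rises of 1 to 2 and 63.6% of 324 genes for rises of 2 to 3. Of the 267 genes with a rise over 3, 181 (67.8%) were lower, with a median log2 change of -1.4, yet 14 (5.24%) were higher. By the early time at which a raised gene was highest, 37.9% of the 153 genes highest at 1 h, 26.6% of the 436 highest at 2 h and 38.6% of the 1818 highest at 4 h were lower at 24 h. The plot of the late change against the rise at 4 h shows both arms among the most induced genes.

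**Figure D2:**
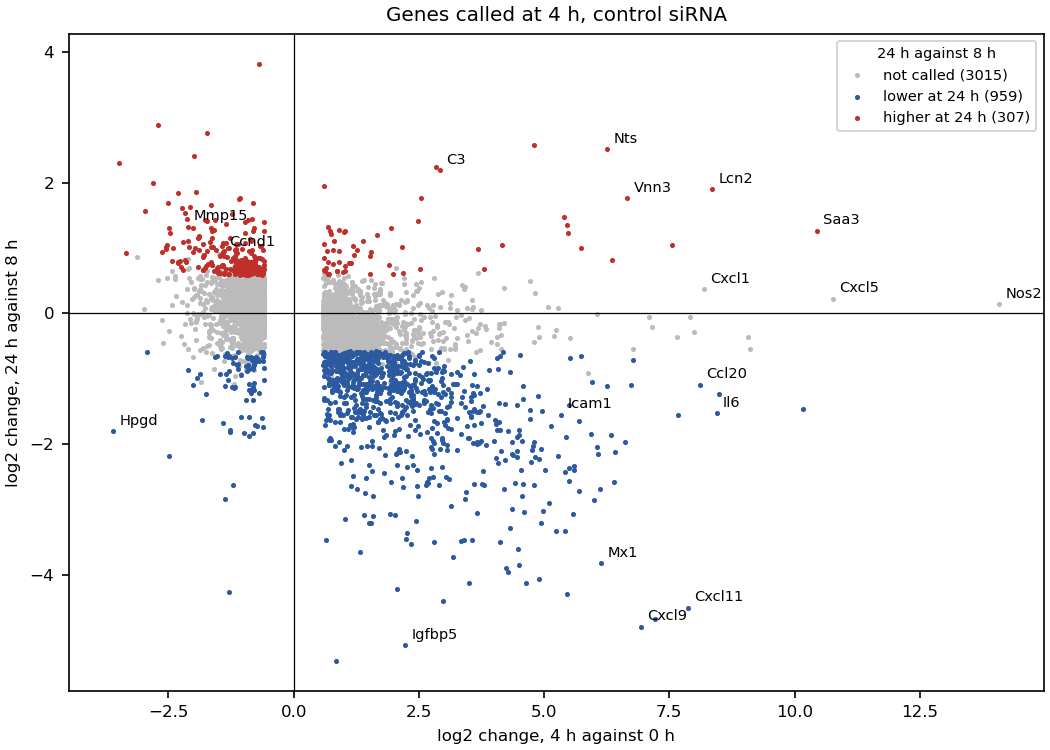
The log2 change from 0 h to 4 h (x axis) is set against the log2 change from 8 h to 24 h (y axis) in NT cells, 1 point per gene called at 4 h, with genes called lower (blue) or higher (red) at 24 h in colour. Among genes with an early rise over 3, 181 of 267 lie in the called lower set while *Lcn2*, *Saa3* and *Nts* lie above 0.

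Persistence was also read against medium only. Over all genes, 6.7% were above and 9.47% below the 0 h level at 24 h in NT cells. To keep the 0 h libraries of that test out of the choice, the early genes were taken here from IFT88siRNA cells, in which 16.1% of genes were raised and 13.6% lowered at 4 h. Of 2290 raised genes tested, 675 (29.5%) were still above 0 h at 24 h, 183 (7.99%) were below it, and 1432 passed neither way. Of 2041 lowered genes, 597 (29.3%) were still below 0 h, 18 were above it, and 1426 passed neither way. *Lcn2*, *Saa3*, *Nos2* and *Cxcl5* were among the raised genes still above 0 h, and *Acta2*, *Igfbp5*, *Penk* and *Cilp2* among those now below it.

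Counts of called members in the gene lists below stand against 3.7% higher and 9.11% lower over all tested genes. Interferon-stimulated genes fell almost as a block. Of 38 tested, 36 were lower at 24 h, with a median log2 change of -1.22, and the remaining pair, *Irf9* (-0.55) and *Irf1* (-0.46), did not reach the fold threshold. All 38 had been raised at 4 h, and 15 of 38 were still called above the 0 h level at 24 h. By edgeR at an unadjusted p under 0.05, without the fold threshold, 32 were above 0 h and 1 below. The median log2 change from 0 h to 24 h was 0.482. *Ifit3*, an antiviral protein of the tetratricopeptide family, was at 449.5, 417 and 447 CPM after 8 h and 72.2, 76.1 and 70.3 CPM after 24 h (log2 change -2.61, SE 0.0503, adjusted p = 8.78e-12). Its 0 h libraries had 75.8, 76.7 and 72.6 CPM, and 1 of the 24 h libraries lay inside that range and the other two just below it. *Ifit3b* went from 123 ± 2.21 to 20.2 ± 2.49 CPM (log2 change -2.63, SE 0.0708, adjusted p = 1.1e-10), but it is nearly identical to *Ifit3* and how reads were split between them is uncertain. *Gbp5*, an interferon-induced guanylate-binding protein, went from 58 ± 5.04 to 13.5 ± 1.05 CPM (log2 change -2.13, SE 0.0782, adjusted p = 8.88e-10). The line is grown with interferon-γ before its release, and the part of that exposure in these levels was not tested. Of 19 tested genes for the immunoproteasome and MHC class I, 7 were lower. *Psmb10*, a catalytic immunoproteasome subunit, went from 158 ± 8.44 to 40.5 ± 1.80 CPM (log2 change -1.99, SE 0.0543, adjusted p = 1.12e-10). *H2-D1* (0.22) and *H2-K1* (0.21), which present peptides on the cell surface and share reads with related genes, did not pass.

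**Figure D3:**
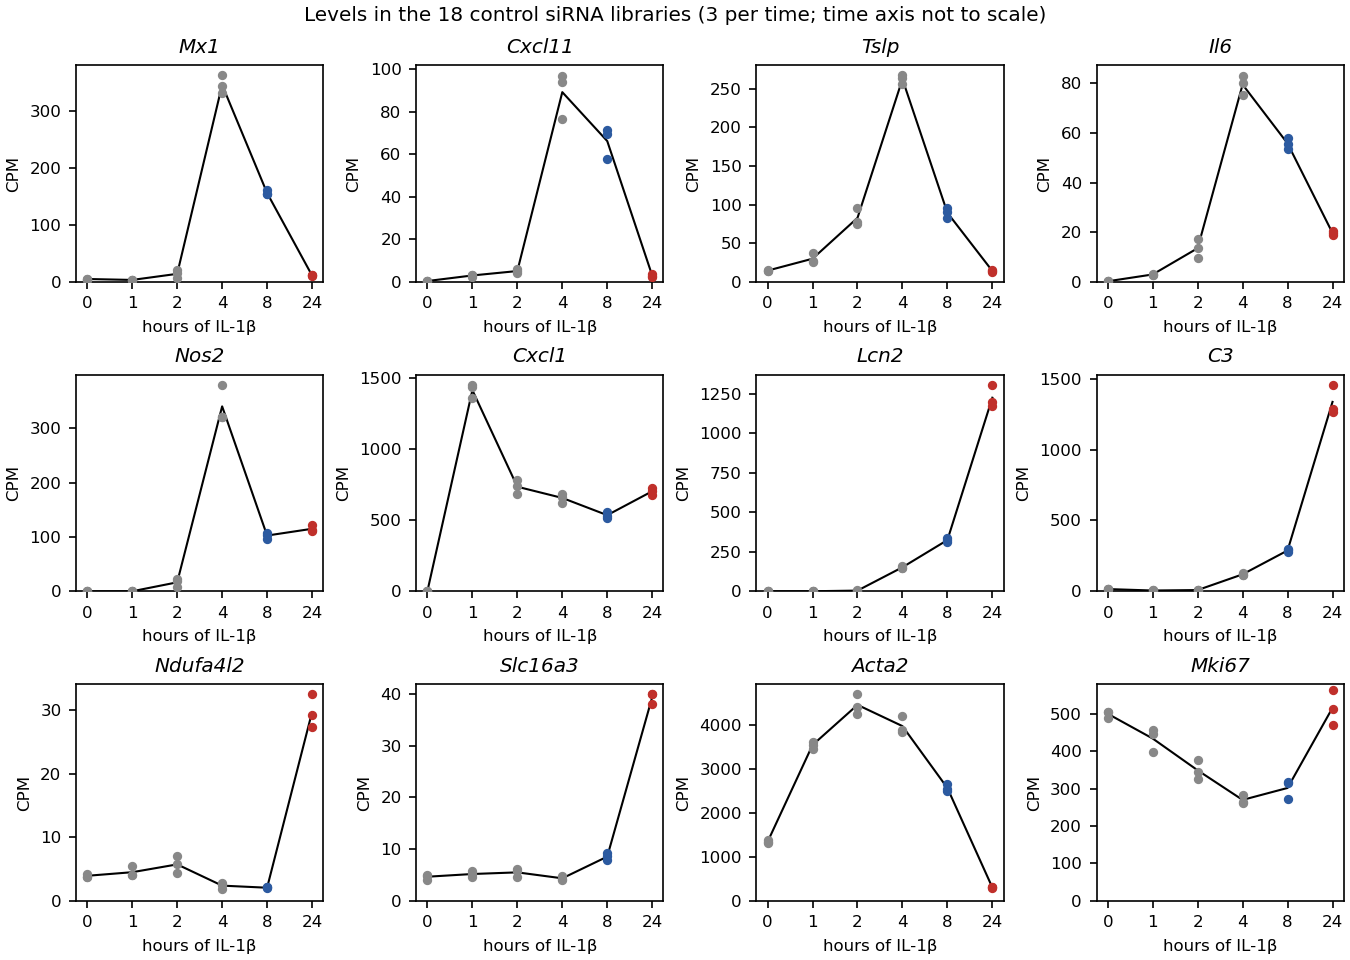
CPM (y axis, linear from 0) is drawn against hours of IL-1β (x axis, not to scale) for 12 genes in the 18 NT libraries, with 1 point per library, lines through the means, 8 h in blue and 24 h in red. *Mx1* and *Cxcl11* drop between 8 h and 24 h, *Nos2* is near 100 CPM at both times, and *Lcn2*, *C3* and *Ndufa4l2* are highest at 24 h.

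Chemokines split into those that decayed and those that stayed. Of 10 CXC chemokines tested, 5 fell and 1, *Cxcl15*, rose, while 8 of 9 were still above 0 h. *Cxcl10*, the third CXCR3 ligand, was at 834, 741 and 788 CPM after 8 h and 236, 214 and 212 CPM after 24 h (log2 change -1.86, SE 0.0579, adjusted p = 2.45e-10). *Cxcl2*, a neutrophil attractant, was at 8.40, 6.82 and 8.29 CPM after 8 h and 2.87, 2.57 and 3.14 CPM after 24 h (log2 change -1.47, SE 0.13, adjusted p = 1.89e-06). By contrast *Cxcl5*, which acts on the same neutrophil receptor, was at 758, 711 and 729 CPM after 8 h and 863, 909.8 and 831 CPM after 24 h, a log2 difference of 0.22 that stayed under the fold threshold. *Cxcl1*, also a neutrophil attractant, was at 559.7, 518 and 527 CPM after 8 h and 723, 705 and 679 CPM after 24 h (0.37, under the fold threshold). At 0 h these genes had means of 0.366 and 2.28 CPM, far below every library at 8 h or 24 h. Of 10 CC chemokines and fractalkine, 4 fell: *Ccl11*, *Ccl9*, *Ccl17* and *Ccl20*. *Ccl20*, an attractant for CCR6-bearing cells, went from 19.2 ± 0.966 to 9.12 ± 0.581 CPM (log2 change -1.09, SE 0.0773, adjusted p = 2.72e-07). *Ccl2*, the main monocyte attractant, was at 453, 399 and 425 CPM after 8 h and 391, 366 and 367 CPM after 24 h (-0.21, under the fold threshold). Fractalkine, *Cx3cl1*, was likewise not called (-0.18).

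Cytokine mRNAs fell or were not called, from very different heights. Of 15 genes of the IL-6 family and its feedback, 5 fell, and of 11 colony-stimulating factors and other cytokines, 7 fell. *Il6* was at 53.7, 57.9 and 55.8 CPM after 8 h and 19.5, 19.1 and 20.4 CPM after 24 h (log2 change -1.53, SE 0.0528, adjusted p = 5.36e-10). It had 0.251, 0.246 and 0.177 CPM at 0 h, so every 24 h library was still well above medium only. *Tslp*, an epithelial and stromal cytokine that acts on dendritic cells, went from 89.4 ± 6.99 to 14.1 ± 1.04 CPM (log2 change -2.69, SE 0.073, adjusted p = 1.1e-10). *Tnf* was low throughout the late phase, at 0.516, 0.700 and 0.727 CPM after 8 h and 0.189, 0.189 and 0.283 CPM after 24 h (log2 change -1.56, SE 0.357, adjusted p = 0.00358). *Csf3*, which drives neutrophil production, went from 9.50 ± 1.10 to 5.90 ± 0.837 CPM (log2 change -0.72, SE 0.122, adjusted p = 0.000484). *Lif* was at 130.2, 139 and 135 CPM after 8 h and 99.1, 95.5 and 101 CPM after 24 h, a log2 change of -0.47 under the fold threshold. The shared receptor chain *Il6st* (0.30) and the oncostatin M receptor *Osmr* (0.12) were not called.

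Parts of IL-1 and leukocyte signalling moved as well. The receptor for IL-33, *Il1rl1*, was at 872, 772 and 836 CPM after 8 h and 191, 172 and 168 CPM after 24 h (log2 change -2.25, SE 0.0616, adjusted p = 1.12e-10), and the natural IL-1 receptor antagonist *Il1rn* at 341, 316 and 324 CPM after 8 h and 152, 159 and 145 CPM after 24 h (log2 change -1.13, SE 0.0484, adjusted p = 3.37e-09). Both were nonetheless above their 0 h means of 46.5 and 52.7 CPM at 24 h. The signalling receptor *Il1r1* (-0.29) and its accessory chain *Il1rap* (-0.21) were not called. Of 11 tested genes for Toll-like receptors and their partners, 2 fell, against 9.11% of all genes. These were *Tlr3*, a sensor of double-stranded RNA (-1.47), and *Tlr2*, a sensor of bacterial lipoproteins (-1.31). Of 7 tested adhesion molecules, 5 fell. *Vcam1*, a ligand for leukocyte integrins, was at 150.4, 139 and 152 CPM after 8 h and 43.2, 43.2 and 37.9 CPM after 24 h (log2 change -1.85, SE 0.0601, adjusted p = 3.57e-10). *Icam1*, another such ligand, was at 29.2, 25.9 and 28.8 CPM after 8 h and 10.1, 9.62 and 9.36 CPM after 24 h (log2 change -1.55, SE 0.0728, adjusted p = 7.69e-09). In both genes the 24 h libraries lay below the 8 h range and above the 0 h means of 11.5 and 3.51 CPM.

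Within the NF-κB pathway few genes of the negative feedback arm or the transcription factor subunits were called between 8 h and 24 h. Against 0 h, 9 of 15 tested genes for IκB proteins, A20 and related feedback proteins were still called above at 24 h. Of 16 such genes tested against 8 h, 5 were higher and 4 lower by edgeR at an unadjusted p under 0.05. With both thresholds 1 fell and 1 rose, near the all-gene shares of 9.11% lower and 3.7% higher. The fall was in *Tnfaip3*, which encodes the ubiquitin-editing inhibitor A20, at 114, 112 and 111 CPM after 8 h and 66.6, 63.8 and 62.3 CPM after 24 h (log2 change -0.83, SE 0.0429, adjusted p = 1.76e-08). The rise was in *Tnip3*, which encodes an A20-binding protein, at 2.53, 1.97 and 3.20 CPM after 8 h and 7.41, 6.72 and 7.0 CPM after 24 h (log2 change 1.42, SE 0.151, adjusted p = 1.07e-05). *Nfkbiz*, an atypical IκB that co-activates late genes, was at 273, 283 and 273 CPM after 8 h and 297, 292 and 291 CPM after 24 h (0.064), against a 0 h mean of 39.1 CPM. Of 12 Rel subunit and IKK genes, edgeR and DESeq2 each called 0 in either direction, although 1 was higher and 6 lower at an unadjusted p under 0.05. *Nfkb1* (-0.009) and *Nfkb2* (-0.13) kept means of 333 and 256 CPM at 24 h against 128 and 136 CPM at 0 h.

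Early-response transcription factors gave 9 falls among 25 tested genes of the AP-1, EGR, NR4A and IER families. *Nr4a1*, an orphan nuclear receptor induced within minutes of many stimuli, was at 34, 32.9 and 32.8 CPM after 8 h and 9.67, 9.89 and 9.72 CPM after 24 h (log2 change -1.79, SE 0.0602, adjusted p = 4.78e-10). *Nr4a2* of the same family went from 42.7 ± 1.44 to 13.1 ± 1.19 CPM (log2 change -1.73, SE 0.0691, adjusted p = 1.81e-09). *Batf2*, an AP-1 family member induced by interferon, went from 15.8 ± 0.893 to 2.62 ± 0.244 CPM (log2 change -2.61, SE 0.102, adjusted p = 1.47e-09), and *Egr4* from 1.18 ± 0.277 to 0.198 ± 0.0622 CPM (log2 change -2.58, SE 0.352, adjusted p = 8.42e-05). The AP-1 subunits *Jun* (-0.067), *Junb* (-0.21) and *Fosl2* (-0.35) were not called. Of 14 tested genes for MAPK phosphatases, Sprouty and Spred proteins, which restrain the kinases, *Dusp5* fell (-1.09) and *Spred3* rose (0.69). Such single calls are near the all-gene shares of 9.11% lower and 3.7% higher. Of 17 genes for regulators of mRNA decay, edgeR and DESeq2 each called 0 in either direction, although 10 were higher and 2 lower at an unadjusted p under 0.05.

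The mRNAs for the enzymes of the soluble mediators had different late courses. *Nos2*, which encodes the inducible nitric oxide synthase, was at 104, 96.6 and 107 CPM after 8 h and 121, 111 and 113 CPM after 24 h (log2 change 0.14, adjusted p = 0.0438). It had reached 321, 321 and 379.9 CPM at 4 h, so its level had come down before 8 h. In the medium-only libraries it was at 0.0419, 0 and 0 CPM. *Slc7a2*, the arginine importer that feeds this enzyme, was at 642, 617 and 566 and 664, 627 and 618 CPM (0.042). *Ptgs2*, which encodes cyclooxygenase-2, was at 329.5, 304 and 296 CPM after 8 h and 208, 196 and 196 CPM after 24 h (log2 change -0.66, SE 0.0496, adjusted p = 4.91e-07). *Ptges*, the inducible synthase that completes prostaglandin E2, went the other way, at 12.1, 9.14 and 10 CPM after 8 h and 18.9, 17.6 and 16.1 CPM after 24 h (log2 change 0.74, SE 0.101, adjusted p = 8.94e-05). Of 12 tested genes for prostaglandin E2 synthesis, transport, breakdown and receptors, 7 fell and *Ptges* alone rose. The falls included *Slco2a1*, the prostaglandin transporter (-1.16), *Hpgd*, which breaks prostaglandins down (-1.80), and *Ptger4*, a prostaglandin E2 receptor (-1.33). *Acod1*, the itaconate-making enzyme, was at 17.2, 15 and 16.8 CPM after 8 h and 12.1, 10.4 and 11.3 CPM after 24 h (-0.56, under the fold threshold), and *Ch25h*, which makes 25-hydroxycholesterol, had a log2 difference of -0.28.

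Some acute-phase and complement genes went on rising. Of 16 tested, 7 rose and 2, *C2* and *Cd59a*, fell, with a median log2 change of 0.438, and 13 of 16 were above 0 h at 24 h. *Lcn2* (chr2:32384633-32388252), which encodes the siderophore-binding protein lipocalin-2, was at 325, 311 and 338 CPM after 8 h and 1306, 1197 and 1174 CPM after 24 h (log2 change 1.89, SE 0.0528, adjusted p = 1.22e-10). It had 0.503, 0.368 and 0.530 CPM at 0 h and 149, 145 and 163 CPM at 4 h, so each later group lay above the one before. *Saa3*, a serum amyloid A protein made outside the liver, was at 432, 382 and 452 CPM after 8 h and 1115, 939 and 1039 CPM after 24 h (log2 change 1.26, SE 0.0714, adjusted p = 3.65e-08). *Hp*, which encodes haptoglobin, went from 20.5 ± 2.48 to 52.9 ± 4.55 CPM (log2 change 1.34, SE 0.0858, adjusted p = 1.11e-07). *Saa1* (0.99) was called while *Saa2* (-0.36) was not, but these are close paralogues and how reads were shared between them is uncertain. *Ptx3*, a long pentraxin, had a high level at 8 h, 1419.5, 1381 and 1409 CPM, and kept it at 24 h, 1334, 1309 and 1264 CPM (-0.13). Other strongly induced genes that went on rising were *Steap4*, a metalloreductase (1.23), *Vnn3* of the vanin family (1.76) and the serpin *Serpina3i* (1.04), which has close paralogues. *Serpinb2*, the plasminogen activator inhibitor-2 gene, was as strongly induced at 4 h but fell, from 11 ± 0.398 to 2.81 ± 0.164 CPM (log2 change -1.98, SE 0.102, adjusted p = 1.63e-08).

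**Figure D4:**
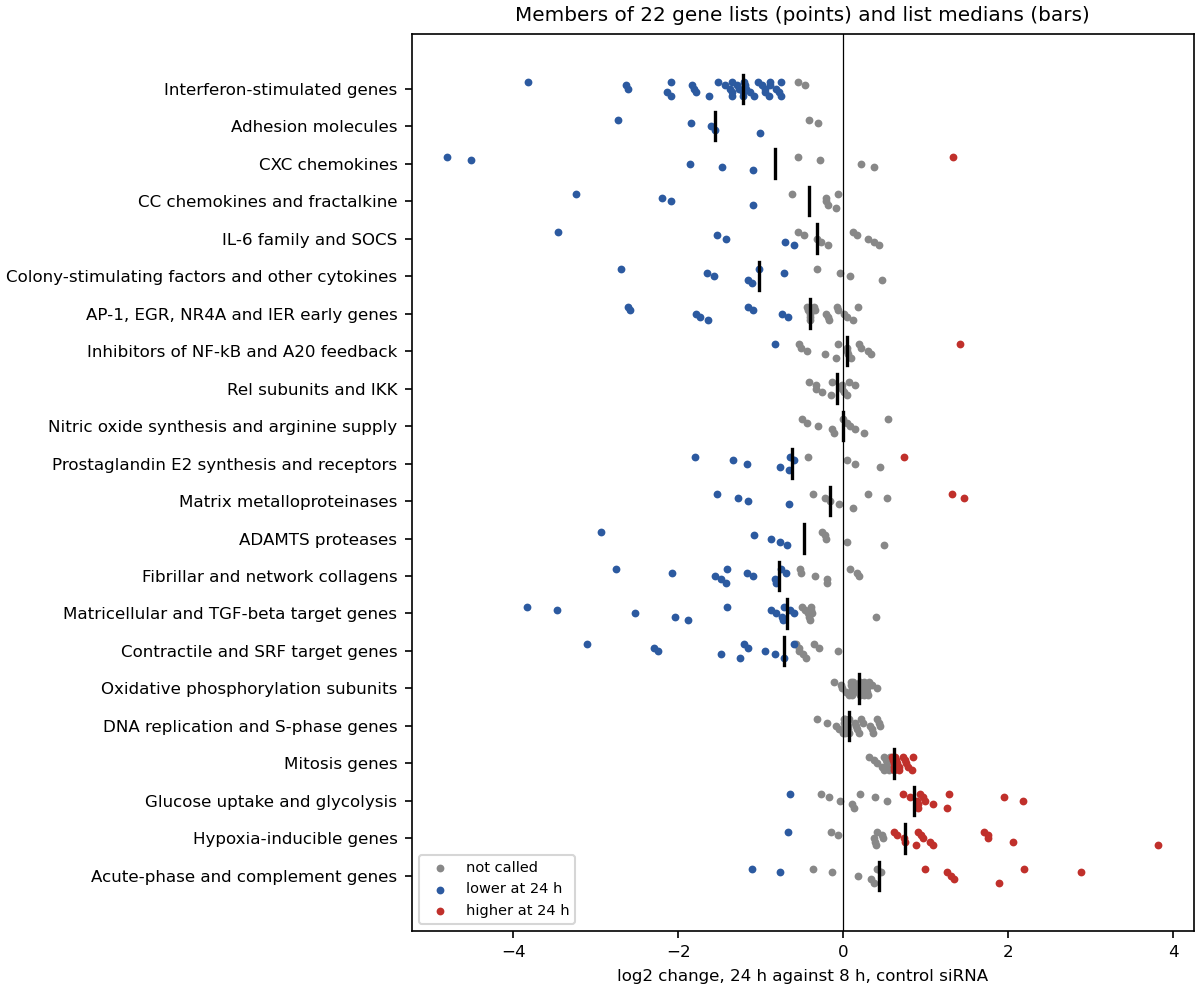
Each row is a gene list, with 1 point per tested member at its log2 change from 8 h to 24 h in NT cells (x axis), blue where called lower, red where called higher and grey otherwise, and a bar at the list median. Interferon-stimulated genes lie almost wholly to the left, with 36 of 38 called lower, and glycolysis genes mostly to the right, with 13 of 22 called higher.

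Many genes of glucose metabolism rose. Of 22 tested glucose transport and glycolysis genes, 13 were higher at 24 h and 1, *Slc2a3*, was lower, with a median log2 change of 0.854. At 24 h 16 of 22 were above 0 h, although only 5 had been raised at 4 h. *Slc16a3* was at 8.63, 7.83 and 9.20 CPM after 8 h and 40, 38.1 and 40.1 CPM after 24 h (log2 change 2.18, SE 0.0698, adjusted p = 3.13e-10). *Tpi1*, which encodes triosephosphate isomerase, was at 392, 363 and 386 CPM after 8 h and 998, 934 and 899 CPM after 24 h (log2 change 1.29, SE 0.0507, adjusted p = 1.59e-09). *Pfkl*, the liver-type phosphofructokinase, was at 131, 129 and 135 CPM after 8 h and 330.2, 318 and 310.4 CPM after 24 h (log2 change 1.26, SE 0.0426, adjusted p = 4.85e-10). All of these 24 h libraries lay above the 8 h and 0 h ranges. *Hk1* (0.53) and *Slc2a1* (0.39) did not reach the fold threshold. A list of 24 genes known to respond to low oxygen was drawn up after these values had been seen and is given only as a description: 15 rose and 1 fell, with a median of 0.749. *Car9* was at 5.35, 7.04 and 5.53 CPM after 8 h and 23.9, 25.7 and 26.3 CPM after 24 h (log2 change 2.06, SE 0.0944, adjusted p = 6.18e-09). *Bnip3*, a mitophagy receptor, went from 28.9 ± 1.94 to 99.2 ± 2.47 CPM (log2 change 1.76, SE 0.0542, adjusted p = 2.42e-10) and *Pdk1*, which restrains pyruvate oxidation, from 25.1 ± 0.371 to 85.9 ± 6.31 CPM (log2 change 1.75, SE 0.0593, adjusted p = 4.85e-10). The oxygen level and cell density of these cultures were not analysed here. Of 28 nuclear genes for oxidative phosphorylation subunits, edgeR and DESeq2 each called 0, although 20 were higher and 1 was lower at an unadjusted p under 0.05.

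Of 24 tested genes for oxidative stress and iron, 4 rose and 2 fell, against 3.7% and 9.11% of all genes. The falls were thus near the all-gene share. *Tfrc*, the transferrin receptor that imports iron, was at 132, 119 and 117 CPM after 8 h and 359, 371 and 352 CPM after 24 h (log2 change 1.53, SE 0.0522, adjusted p = 4.97e-10). *Fth1*, the ferritin heavy chain that stores it, was at 2743, 2605 and 2784 CPM after 8 h and 6058, 5418 and 5379.9 CPM after 24 h (log2 change 1.03, SE 0.0546, adjusted p = 2.16e-08). *Slc7a11*, the cystine importer, went the other way (-0.85). Of 26 genes of cholesterol synthesis and its control, 1 was called higher, which is near the all-gene share, with a list median of 0.289. By edgeR 20 were higher and 2 lower at an unadjusted p under 0.05, so most changes stayed small.

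Mitosis genes were higher at 24 h than at 8 h. All 28 tested were higher at 24 h by adjusted p, and 16 also passed the fold threshold, with a median of 0.612. Against 0 h, edgeR called 0 of them, with a median of 0.0544, 9 above and 2 below at an unadjusted p under 0.05. *Mki67* is a usual mark of cycling cells and had 506, 506 and 489.5 CPM at 0 h, 315, 319 and 272 CPM after 8 h and 564, 471 and 514 CPM after 24 h (log2 change 0.75 from 8 h). *Ccnf* (0.85), *Cenpa* (0.84) and *Ccnb2* (0.78) followed the same course. These changes sat near the fold threshold, and 11 of the 28 passed it with upper-quartile scaling, 9 on log2(TPM + 1) and 4 when the fold was tested against 1.5. Of 28 DNA replication genes, edgeR and DESeq2 each called 0, although 12 were higher and 2 lower at an unadjusted p under 0.05. Of 19 G1 cyclin and CDK inhibitor genes, 5 rose, among them *Ccnd1* for cyclin D1 (0.93) and *Cdkn1a* for p21 (0.67). *Ccnd1* at 24 h, 213, 192 and 192 CPM, was still below its 0 h libraries of 340.5, 332 and 319.7 CPM.

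Many contractile and matrix genes also fell. Of 19 tested contractile and SRF target genes, 11 fell, with a median of -0.714, and 13 of 19 were below 0 h at 24 h. *Acta2*, the smooth muscle actin of activated fibroblasts, was at 2649.9, 2495 and 2536 CPM after 8 h and 308, 296 and 303 CPM after 24 h (log2 change -3.10, SE 0.0462, adjusted p = 1.61e-12). It had 1308, 1334 and 1375 CPM at 0 h and 4196, 3825 and 3876 CPM at 4 h, so the gene went from above to below its medium-only range. *Tagln* (-2.25) and *Cnn1* (-1.48), further smooth muscle genes, fell with it, and *Actb* (-0.48) did not reach the fold threshold. Of 22 matricellular and TGF-β target genes, 13 fell. *Tnc*, which encodes tenascin-C, was at 1035, 1030.2 and 977 CPM after 8 h and 199, 167 and 173 CPM after 24 h (log2 change -2.52, SE 0.063, adjusted p = 8.26e-11). *Eln* was at 5.63, 5.68 and 4.54 CPM after 8 h and 0.453, 0.302 and 0.353 CPM after 24 h (log2 change -3.84, SE 0.21, adjusted p = 2.78e-08), and *Tgfbi* went from 3.93 ± 0.156 to 0.359 ± 0.0685 CPM (log2 change -3.47, SE 0.207, adjusted p = 6.07e-08). *Fn1*, fibronectin (-0.50), did not reach the fold threshold.

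Of 20 tested collagen genes, 12 fell, with a median of -0.782. *Col3a1*, a fibrillar collagen of connective tissue, was at 564, 506 and 523 CPM after 8 h and 200.3, 182 and 167 CPM after 24 h (log2 change -1.56, SE 0.0653, adjusted p = 2.81e-09). *Col8a2* (-2.76) and *Col11a2* (-2.07) fell more, from lower counts. *Col5a2* (-0.52) and *Col12a1* (-0.20) were not called. Among 16 cartilage genes 7 fell and 1, *Matn4*, rose: *Cilp2* was at 20.3, 17.1 and 21.1 CPM after 8 h and 1.17, 0.868 and 1.34 CPM after 24 h (log2 change -4.12, SE 0.144, adjusted p = 6.01e-10), and *Prg4*, which encodes lubricin, at 7.83, 7.08 and 6.69 CPM after 8 h and 2.72, 2.30 and 2.26 CPM after 24 h (log2 change -1.59, SE 0.128, adjusted p = 8.57e-07). *Sox9*, the main chondrogenic transcription factor, went from 24.9 ± 1.37 to 12.7 ± 0.431 CPM (log2 change -0.99, SE 0.0677, adjusted p = 2.11e-07) and *Sox4* from 55.3 ± 2.24 to 30 ± 2.27 CPM (log2 change -0.91, SE 0.0609, adjusted p = 1.73e-07). Of 10 small leucine-rich proteoglycans, 4 fell and 1 rose. The rise was in *Dcn*, decorin, at 153, 142 and 155 CPM after 8 h and 537, 514 and 494 CPM after 24 h (log2 change 1.76, SE 0.0493, adjusted p = 1.22e-10). Its libraries at 0 h had only 9.26, 10.2 and 10.4 CPM. *Aspn*, asporin, moved against it, at 44.9, 38.1 and 39.9 CPM after 8 h and 8.09, 10.9 and 8.23 CPM after 24 h (log2 change -2.19, SE 0.105, adjusted p = 9.35e-09).

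Proteases divided. Of 13 matrix metalloproteinases tested, 4 fell and 2 rose, against 9.11% and 3.7% of all genes. *Mmp13*, the main collagenase of cartilage breakdown, was at 25.1, 21.6 and 23.2 CPM after 8 h and 11.7, 8.83 and 8.80 CPM after 24 h (log2 change -1.27, SE 0.105, adjusted p = 1.08e-06). *Mmp3*, stromelysin-1, was at 5.25, 5.99 and 5.38 CPM after 8 h and 5.03, 4.11 and 5.30 CPM after 24 h (-0.22, adjusted p = 0.166) and was not called. *Mmp19* was at 6.94, 7.39 and 7.52 CPM after 8 h and 20.1, 21.4 and 19.9 CPM after 24 h (log2 change 1.46, SE 0.0737, adjusted p = 1.42e-08), and *Mmp15*, a membrane-type enzyme, also rose (1.32). Of 10 ADAMTS proteases, 5 fell, led by the procollagen peptidase gene *Adamts14* (-2.93). *Adamts5*, the main aggrecanase in mice, had a log2 difference of -0.26 and was not called. On the inhibitor side *Timp1* went from 768 ± 28.3 to 515 ± 26.3 CPM (log2 change -0.60, SE 0.0487, adjusted p = 9.31e-07) and *Timp3* (-0.41) was not called. Of 12 genes of hyaluronan synthesis and binding, 5 fell and 1 rose. *Has2*, the main hyaluronan synthase, went from 74.6 ± 7.09 to 41.9 ± 2.25 CPM (log2 change -0.85, SE 0.0688, adjusted p = 8.64e-07), and the gene that rose, *Hmmr* (0.82), is also a mitotic spindle gene.

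Growth factor genes gave 10 falls and 1 rise, in *Inhbb*, among 31 tested. *Btc*, betacellulin, a ligand of the EGF receptor, was at 10, 8.53 and 9.49 CPM after 8 h and 2.08, 1.81 and 1.45 CPM after 24 h (log2 change -2.42, SE 0.14, adjusted p = 4.52e-08). *Pdgfb*, a platelet-derived growth factor chain, went from 4.48 ± 0.673 to 0.698 ± 0.131 CPM (log2 change -2.69, SE 0.202, adjusted p = 4.58e-07). *Ereg*, epiregulin, was strongly induced at 4 h and was held, at 360.2, 329 and 346 CPM after 8 h and 319, 319 and 303 CPM after 24 h (-0.16). *Grem1*, a BMP antagonist, fell (-1.30).

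Clock, cilium and Hedgehog genes were examined because the study concerns a ciliary protein and the cells were sampled across a day. Of 19 clock genes 4 rose and 1 fell: *Dbp* (0.92), *Nr1d1* (0.80) and *Tef* (0.62), which are output or repressor genes of the clock, were among the rises and *Nfil3* (-0.63) was the fall. Of 31 intraflagellar transport and Hedgehog genes 4 rose and 1 fell. Over all genes 3.7% rose and 9.11% fell, so the single fall in each of these lists was below the all-gene share. *Hhip*, a Hedgehog-interacting protein and target gene of the pathway, was at 0.328, 0.700 and 0.254 CPM after 8 h and 2.76, 3.36 and 2.65 CPM after 24 h (log2 change 2.76, SE 0.288, adjusted p = 8.53e-06). *Wdr35* (0.71) and *Ift80* (0.60), both for intraflagellar transport, rose by about the fold threshold, and *Ift80* lost its call in 9 of 17 alternatives. *Ift88* itself had 6.94, 7.39 and 6.22 CPM after 8 h and 6.12, 6.45 and 6.18 CPM after 24 h and was not called (-0.15), nor were the ciliary genes *Nphp4* (-0.19) and *Ttbk2* (0.23).

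Genes lowered at 4 h also differed in whether they recovered. *Dbp* and *Celf5*, an RNA-binding protein gene (0.94), had risen from 8 h yet were below their 0 h means at 24 h. *Tppp*, a tubulin polymerisation-promoting protein gene, was at 101, 109.5 and 102 CPM at 0 h, 30.7, 29.6 and 26.8 CPM at 4 h and 89.7, 88.5 and 84.9 CPM after 8 h and 27.4, 30.1 and 28.9 CPM after 24 h (log2 change -1.63, SE 0.0503, adjusted p = 2.42e-10). *Tppp* had recovered in large part by 8 h, though not to its 0 h range, and then fell a second time. *4833423E24Rik* went from 13.4 ± 0.785 to 2.97 ± 0.323 CPM (log2 change -2.19, SE 0.106, adjusted p = 1.06e-08), and *Adra1d*, an α1-adrenergic receptor gene, from 10.4 ± 0.561 to 5.81 ± 0.793 CPM (log2 change -0.87, SE 0.108, adjusted p = 3.92e-05). *Oprk1*, the κ-opioid receptor gene, was back at 2.39, 2.62 and 2.98 CPM after 8 h and 2.68, 2.19 and 2.69 CPM after 24 h (-0.11).

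The sequence elements shown above were counted in the promoter windows of 10609 of the 15374 tested genes, those with a RefSeq entry. A gene was counted where any of its windows held a match. An ISRE-like GAAANNGAA was in 8.75% of these genes and in 19 of 29 (65.5%) of the interferon-stimulated genes. It was in 21.7% of the genes raised at 4 h and lower at 24 h and in 10.7% of those raised and not called. The ACGTG core was in 28.6% of tested genes and in 14 of 21 (66.7%) glycolysis genes. An AP-1 match was in 6.56% of tested genes and 15.3% of those raised and then lower. It was in 7.98% of those raised and not called and in 5 of 45 (11.1%) of those raised and then higher. A CArG box was in 1.65% of tested genes and in 5 of 15 (33.3%) contractile genes. A κB-like match was in 5.52% of tested genes, 8.39% of those raised and lower and 8.08% of those raised and not called. Over all 32851 windows the shares were 8.56% for the ISRE-like, 19.6% for the ACGTG, 7.81% for the AP-1, 1.63% for the CArG and 4.26% for the κB-like element. These last shares are per window and not per gene, and a gene with several windows has more chances to match. In the annotated 3′UTRs, genes raised at 4 h and lower at 24 h had a median length of 994 bases, those raised and not called 1430.0 bases and all tested genes 1140.0 bases. The AU-rich pentamer ATTTA occurred 1.77, 1.87 and 1.83 times per kilobase in the same order. The 57 genes raised at 4 h and higher at 24 h had a median of 920 bases and 1.69 ATTTA per kilobase. The medians of the raised genes that fell and of those that went on rising were both below that of all tested genes. Differences between the classes were not tested. Each gene was represented by the 3′UTR of its longest coding transcript. These are counts of letters and not of sites in use.

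In IFT88siRNA cells the same interval was measured in 6 other libraries. There 437 genes (2.84%) were higher and 1044 (6.79%) lower at 24 h than at 8 h. Of the 1330 NT-lower genes tested in both groups of cells, 902 were also called lower with IFT88siRNA, which is 67.8% of the NT calls and 88.2% of the 1023 IFT88siRNA calls. Of 561 NT-higher genes 274 were shared, 48.8% of the NT calls and 63.6% of the IFT88siRNA calls, and 0 genes were called in opposite directions. Genes called lower in NT had medians of -1.05 in NT and -0.813 in IFT88siRNA, and genes called lower in IFT88siRNA had medians of -1.12 in NT and -0.985 in IFT88siRNA. The IFT88siRNA library of replicate 3 at 8 h stood apart, with *Ift88* at 2.95 CPM against 1.51 and 1.59 CPM in its group, and without it the IFT88siRNA calls were 808 higher and 1112 lower. The shared higher genes were then 264, which is 46.6% of the NT calls and 33.9% of the IFT88siRNA calls. In that setting 2 genes lower in NT were called higher with IFT88siRNA, *Tnk2os* (-0.72 and 0.74) and *Gm45838* (-0.75 and 0.84), which were named after their values were seen. The mean of *Ift88* was 2.02 CPM (8 h) and 2.24 CPM (24 h) after its siRNA, against 6.85 and 6.25 CPM in NT cells.

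**Figure D5:**
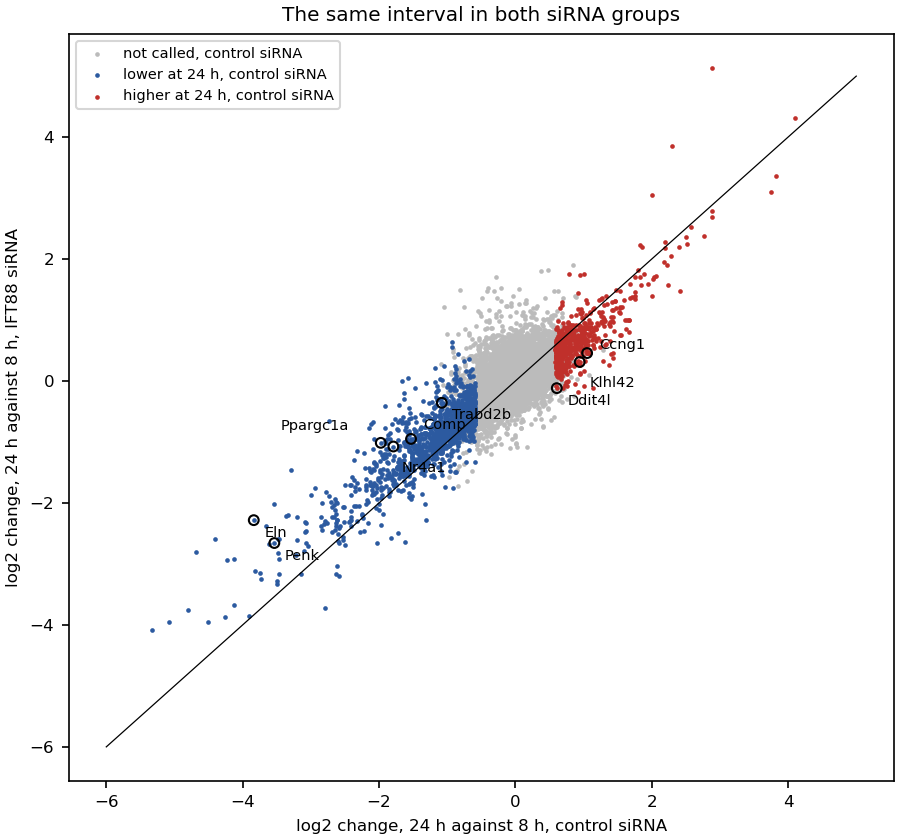
The log2 change from 8 h to 24 h in NT cells (x axis) is set against that in IFT88siRNA cells (y axis), 1 point per gene tested in both, coloured by its NT call, with a line where both changes are equal. The 9 genes called in the test of the difference are circled and named, and 6 of them, such as *Eln*, lie above the line.

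The test of the difference between the siRNA groups called 9 of 15890 genes (0.0566%), with 1521 at an unadjusted p under 0.05. Leaving out the library that stood apart raised that count to 53, and leaving out others lowered it to as few as 2. *Penk*, which encodes the opioid precursor proenkephalin, was at 451, 375 and 422 CPM after 8 h and 41, 34.6 and 33.9 CPM after 24 h (log2 change -3.54, SE 0.0843, adjusted p = 6.17e-11) in NT cells. In IFT88siRNA cells it was at 376, 358 and 290.5 CPM after 8 h and 53.8, 56.7 and 51.5 CPM after 24 h, a smaller fall. *Eln* and *Nr4a1* also fell less with IFT88siRNA. In interferon-stimulated genes 35 of 38 were lower with IFT88siRNA, with a median of -1.11, and in glycolysis genes 13 of 22 were higher, with a median of 0.695. For *Csf3* the log2 change was -0.076 with IFT88siRNA and -0.72 with NT, a difference of 0.65 (SE 0.235, adjusted p = 0.371).

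The labelled cell type was checked against marker genes. The summed CPM of 9 chondrocyte markers was 84.7 to 88.9 at 8 h and 43.9 to 46.4 at 24 h, and that of 10 fibroblast markers was 4720.0 to 4950.0 and then 3400.0 to 3700.0. The chondrocyte markers were thus low beside those of fibroblasts, although summed CPM does not correct for gene length. *Col2a1*, the defining collagen of cartilage, was at 10.1, 12.1 and 11.7 CPM after 8 h and 10, 10.5 and 11.2 CPM after 24 h. Macrophage and leukocyte markers summed to 6.62 to 8.04 and 5.93 to 7.81 CPM, with 8 of 10 under 1 CPM at 8 h. Only 4 of them had enough counts to test, and 3 were called lower at 24 h, *Itgam*, *Fcgr1* and *Lyz2*. *Itgam* lost its call in 3 of 14 alternatives, *Fcgr1* in 4 of 15 and *Lyz2* in 8 of 17. Endothelial markers summed to 3.61 to 3.85 and 1.7 to 2.11 CPM, with all 8 under 1 CPM at both times. Epithelial markers went from between 7.74 and 8.4 to between 1.21 and 1.66 CPM, largely through *Cdh1* at 6.85, 6.86 and 6.32 and 0.340, 0.528 and 0.636 CPM. The part of any such cells in the changes was not tested. In bulk RNA fewer cells of a type and less RNA per cell cannot be told apart. Processed pseudogenes, which share reads with their parent genes, made up 67 of the 569 rises and 19 of the 1400 falls among 854 tested, and such calls are uncertain.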

How the data were processed

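The authors aligned paired-end reads to GRCm38 with Hisat2 2.1.0 and deposited whole-number counts per gene from featureCounts (Subread 1.6.3, default settings, so strand was not used); these counts were not normalized. A second table deposited by the authors holds TPM from Salmon 0.9.1. The gene lists, classes and tests were chosen with earlier results of these data known. Groups came from the sample labels. In R 4.3.3, counts were filtered with filterByExpr, scaled with TMM and tested in the libraries of each comparison alone with edgeR 4.0.16 (quasi-likelihood F-test, two-sided, Benjamini-Hochberg adjustment over all genes tested); SE is the absolute log2 change divided by the square root of F. Tested on simulated data with 15374 genes, the 24 h against 8 h fit recovered 80 of 100 genes changed 2-fold and 96 of 100 changed 4-fold, with 1 false call. Named genes were the 10 largest rises and falls with a mean of at least 50 counts and no overlap; up to 4 called and 2 abundant uncalled members per list; the most induced and most lowered genes at 4 h in each late outcome; genes the study names; and genes that differed between siRNA groups. *C2*, *Cd59a*, *Cxcl15*, *Matn4*, *Inhbb*, *Slc2a3*, *Mki67* and members of the low-oxygen list outside this rule were named after their values were seen. Gene positions came from GENCODE M21 and promoters from RefSeq, both on GRCm38. The 83 symbols shared by several identifiers were resolved to the one with most counts. Alternatives used DESeq2 1.42.0, other scalings and filters, the replicate number as a block, 1 model over all times, limma 3.58.1 on log2(TPM + 1) or log2(TPM + 0.1), and each library left out. Plots used matplotlib 3.10.9 and Python 3.11.15. ImpulseDE2, used by the authors, was not used here. Some genes that this rule names are not reported here.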

Additional observations from a re-analysis of the deposited data

Results flagged for a closer look

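A change from 8 h to 24 h that differed between IFT88siRNA and NT cells was called in 9 genes by edgeR's interaction test (adjusted p under 0.05, difference over 1.5-fold), and each is given as the log2 change with IFT88siRNA minus that with NT. Among genes that fell in NT, *Penk* differed by 0.886 (SE 0.127, adjusted p = 0.00881), with a change of -3.54 in NT and -2.66 with IFT88siRNA. *Eln* differed by 1.57 (SE 0.298, adjusted p = 0.0445) and *Comp*, which encodes a cartilage oligomeric matrix protein, by 0.59 (SE 0.113, adjusted p = 0.0445). *Nr4a1* differed by 0.725 (SE 0.14, adjusted p = 0.0451) and *Ppargc1a*, a coactivator gene for mitochondrial biogenesis, by 0.97 (SE 0.184, adjusted p = 0.0445). *Trabd2b*, which encodes a membrane metalloprotease that restrains Wnt proteins, differed by 0.732 (SE 0.0895, adjusted p = 0.00304). All of these 6 fell less with IFT88siRNA. Among genes that rose in NT, *Ccng1*, a cyclin G1 gene induced by p53, differed by -0.585 (SE 0.099, adjusted p = 0.0253), *Klhl42* by -0.623 (SE 0.0713, adjusted p = 0.00251) and *Ddit4l*, which encodes a restrainer of mTOR signalling, by -0.715 (SE 0.103, adjusted p = 0.00881), so these 3 rose less.

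Over 23 alternatives *Klhl42* and *Trabd2b* were called in 19 each, *Penk* in 17, *Ddit4l* in 16, *Ccng1* in 11, *Nr4a1* in 9, *Eln* and *Ppargc1a* in 7 each and *Comp* in 5. The IFT88siRNA library of replicate 3 at 8 h stood apart from its group, and 53 genes were called without it.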

How the results depend on the processing

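No named gene that was called changed sign under any of the alternatives, although uncalled genes near 0, such as *Nfkb1* (-0.0494 to 0.0191) and *Slc7a2* (-0.0114 to 0.0875), did, and the 24 h against 8 h comparison in NT called 520 to 589 genes higher and 1289 to 1550.0 lower with 1 library left out. The count of genes that differed between siRNA groups, 9, was unstable: 21 with DESeq2, 5 with its size factors, 79 without a count filter, 21 in 1 model over all times, and on log2(TPM + 1) 2 with or without a filter and 0 on log2(TPM + 0.1). Leaving out 1 library gave 2 to 53, with 2 without NT 24 h replicate 2, 3 without NT 8 h replicate 3, 5 without NT 8 h replicate 2, 2 and 5 without IFT88siRNA 24 h replicates 2 and 3, and 53 without IFT88siRNA 8 h replicate 3. The last also moved the IFT88siRNA calls from 437 to 808 higher and from 1044 to 1112 lower, an alternative chosen after seeing the data. Other fold requirements moved counts by construction. Without a fold threshold 3533 genes were higher and 3252 lower, 2169 raised genes were lower and 617 higher, 457 lowered genes were lower and 1953 higher, 35 differed between siRNA groups, 2144 raised genes were above 0 h and 1897 lowered genes below it. With the fold tested against 1.5 (glmTreat) these were 210.0, 779, 539, 28, 20, 78 and 0, and 262 lowered genes were below 0 h. Upper-quartile scaling called 126 lowered genes lower. On log2(TPM + 1) 326 genes were higher, 33 raised and 163 lowered genes were higher and 428 raised genes were above 0 h. On log2(TPM + 0.1) 359 genes and 36 raised genes were higher. Without a TPM filter 301 genes were higher, 567 raised genes lower and 34 higher, 44 lowered genes lower and 146 higher, and 434 raised genes above 0 h. The cause of these moves was not tested.

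The replicate block gave 565 higher and 1404 lower genes in NT and 19 genes that differed between siRNA groups. Same-numbered 8 h and 24 h libraries deviated from their group means with correlations of 0.329, -0.0701 and -0.0462, so the numbers were not taken to pair the libraries. Low counts limit genes near 1 CPM, such as *Tnf*.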

Other observations

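The lincRNA and antisense classes of non-coding genes were called about as often as all tested genes. Of all tested genes 3.7% were higher and 9.11% lower at 24 h than at 8 h in NT cells. Of 384 lincRNA genes tested, 17 (4.43%) were higher and 36 (9.38%) lower. Of 419 antisense genes, 13 (3.1%) were higher and 39 (9.31%) lower, but counting took no account of strand, so reads from such a gene and its partner cannot be told apart.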
